A study of Mus musculus with 2 samples.

Results

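The NRF2 pathway and the antioxidant enzymes it serves were followed in RANKL-treated cultures of mouse bone marrow macrophages, in an MMP9 knockout and a control. The set was defined by gene symbol as Nfe2l2, Keap1, Nqo1, Gclc, Gclm, Txnrd1, Srxn1, Prdx1, Sod1 and Sod2, and all 10 symbols had a row among the 26037 genes of the deposited table. The MMP9_KO group was 1 library of C57BL/6 cells labelled MMP9 KO, and the Control group was 1 library of C57BL/6 cells labelled control. Both came from marrow of mice aged 6 to 8 weeks, grown first with M-CSF at 5 ng/ml, then for 3 days with M-CSF at 30 ng/ml, and RANKL was given to both for 3 days. RANKL is the cytokine that turns macrophages into osteoclasts, the cells that resorb bone. The column headings add "sh" to the knockout and "NCsh" to the control, letters that the labels leave unexplained. The way in which Mmp9 was targeted is thus unknown here.

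NRF2, encoded by Nfe2l2, is the transcription factor that switches on genes against oxidants and reactive chemicals. KEAP1 normally hands it to a cullin 3 ubiquitin ligase for destruction. Oxidants modify KEAP1, after which NRF2 accumulates, pairs with small MAF proteins and binds antioxidant response elements near its target genes. Reactive oxygen species also act as signals downstream of the RANKL receptor, and mouse macrophages that lack NRF2 form osteoclasts more readily.

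The promoter windows of the set were searched for the core of the antioxidant response element, TGACNNNGC on either strand (GCNNNGTCA when read on the other strand). RefSeq windows on GRCm38.p6, from 250 bases before to 50 bases after the start site, matched 9 of the 10 genes with 11 windows, and the entry missing was that of Gclc. The core occurred in 6 of the 11 windows, belonging to 6 of the 9 genes. Of all 32851 windows 12.4% held it, and of all 27025 genes 13.99% had such a window. The stretches around the 6 matches are shown as possible sites for the regulator of the set, within the windows searched. Each is written on the strand of its gene with the core in capitals.
Prdx1, chr4:116685436-116685504, plus strand: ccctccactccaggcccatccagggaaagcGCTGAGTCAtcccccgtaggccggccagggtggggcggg
Gclm, chr3:122245393-122245461, plus strand: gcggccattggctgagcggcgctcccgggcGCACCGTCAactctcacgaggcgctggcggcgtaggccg
Txnrd1, chr10:82859084-82859152, plus strand: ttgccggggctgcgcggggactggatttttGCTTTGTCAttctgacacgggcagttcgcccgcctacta
Sod1, chr16:90220676-90220744, plus strand: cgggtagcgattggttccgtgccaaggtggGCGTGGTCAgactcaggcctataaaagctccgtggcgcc
Nfe2l2, chr2:75704865-75704913, minus strand: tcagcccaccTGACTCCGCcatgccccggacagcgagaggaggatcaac
Srxn1, chr2:152105542-152105570, plus strand: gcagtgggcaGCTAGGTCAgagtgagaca

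The Prdx1 core ran from position -133 to -125 and was the only match among these 6 that reads TGACTCAGC on the other strand. That form was in 0.454% of all windows. It contains the AP-1 site TGACTCA, a motif present in 5.20% of windows and in the windows of Prdx1 and Srxn1 here. The Gclm core began at -134, that of Txnrd1 at -92 of the middle of its 3 windows, that of Sod1 at -56 and that of Nfe2l2 at -240. In Srxn1 the match began at 29 bases past the start, in transcribed sequence. The windows of Keap1, Nqo1 and Sod2 did not contain these letters. In GRCm38 the gene of Nfe2l2 itself spans chr2:75675513-75704641 and that of Keap1 chr9:21229730-21239361, both on the minus strand. Nqo1 lies at chr8:107388225-107403206 on the minus strand, Gclc at chr9:77754535-77794485 and Sod2 at chr17:13006846-13040063, both on the plus strand. A match of letters is a description and does not show that NRF2 binds there. Sequence beyond the windows was not searched, so an empty window does not show that a gene lacks the element.

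**Figure D1:**
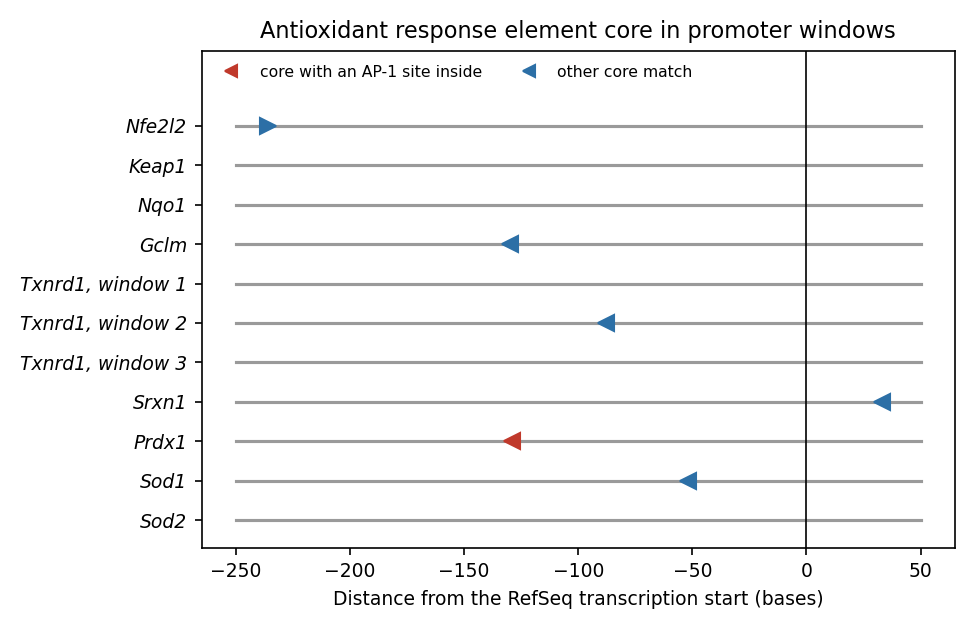
Position of each match to the antioxidant response element core in the 11 promoter windows of 9 genes, as distance in bases from the RefSeq transcription start. Each grey line is a window and each arrowhead a match pointing along its strand. The match in Prdx1, the only one with an AP-1 site inside it, is drawn in red, and the windows of Keap1, Nqo1 and Sod2 are empty.

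Levels are given as normalised read counts, which are read numbers multiplied by 1 factor per library, with no division by gene length. The MMP9_KO library held 17741432 reads and the Control library 20678441 reads. Intervals in parentheses are exact 95% intervals for counting error alone. With 1 library per group no test between the groups was possible, every difference lacks a replicate check, and each statement describes these 2 libraries. Mmp9 itself had 3.87 in MMP9_KO and 139 in Control, a level 36.0-fold lower (30.8 to 42.3). Mmp9 is also an osteoclast marker, and 3 such markers that were not targeted differed more. Ctsk was 87.2-fold lower, Itgb3 96.5-fold and Oscar 95.9-fold, while the other osteoclast markers differed less than Mmp9. How much of the Mmp9 difference came from its targeting was not tested.

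Markers of cell types differed between the libraries. All 10 of the 10 osteoclast markers were lower in MMP9_KO by at least 2-fold, with a summed level of 395 in MMP9_KO and 6824 in Control. The 10 include the targeted gene Mmp9, and the other 9 summed to 391 in MMP9_KO and 6685 in Control. Nfatc1, a transcription factor of osteoclast formation, had 177 in MMP9_KO and 378 in Control, and it came within 2-fold under the 3 other scalings described below and after centring by GC content. Of 8 macrophage markers 6 were compared, and 4 were higher, 1 was lower and 1 was within 2-fold. The 8 had a summed level of 1276 in MMP9_KO and 969 in Control, a sum in which few genes weigh most. Lyz2, 1 of the 4 higher, had 423 in MMP9_KO and 50.8 in Control. Csf1r, within 2-fold, had 564 in MMP9_KO and 751 in Control, and Cd68, the lower one, had 60.9 in MMP9_KO and 150 in Control. The sum thus does not describe a rise of every marker. The 31 markers of neutrophils, stromal cells, B cells, T and NK cells and erythroid cells summed to 1.57 in MMP9_KO and 1.47 in Control, and 21 of them had no read in MMP9_KO and 23 in Control. The labels call the cells primary osteoclast cells, and in MMP9_KO the osteoclast marker Ctsk stood at 42.9, against 3745 in Control. In bulk RNA, fewer cells of a type and less RNA per cell cannot be told apart. The part of this shift in the values below was not tested.

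No compared gene of the NRF2 set differed by 2-fold between the libraries. Genes with a mean level of at least 1 were compared on log2 of the knockout value plus 1 over the control value plus 1, and 9 of the 10 members reached that level. Of these 9, 0 were higher and 0 were lower by at least 2-fold, whereas 4.00% of the 11126 genes compared were higher and 9.58% were lower. The 9 members are too few to set a count of 0 apart from these shares. The log2 ratios of the 9 ran from -0.49 to 0.24, with a median of -0.08 that is the value of Gclm. All compared genes had a median of -0.16 and middle quartiles from -0.55 to 0.17. Relative to that median, 6 members lay above and 3 below, between -0.32 and 0.40. Of all compared genes 50.3% fell in the span of the 9 members. The members together took 0.320% of the reads in MMP9_KO and 0.260% in Control, and Gclm and Txnrd1 made up 61.96% of those in MMP9_KO and 59.6% in Control. Such shares set the sums of both libraries equal, which raises the knockout by a factor of 1.22. As deposited, the levels of the members summed to 1350 in MMP9_KO and 1334 in Control.

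**Figure D2:**
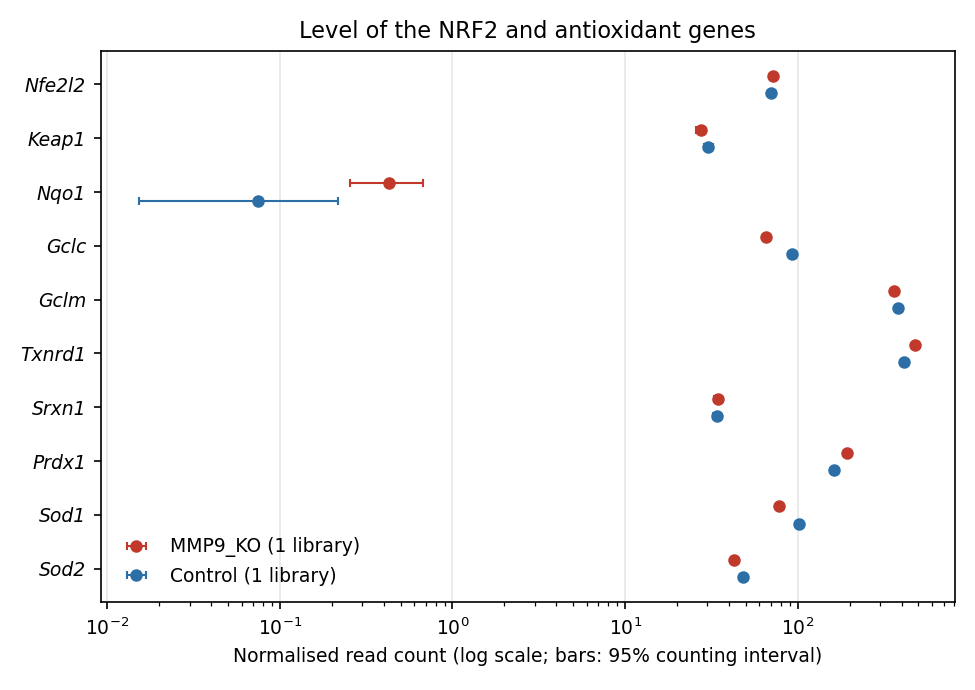
Normalised read count of each of the 10 genes on a log axis, with MMP9_KO in red above Control in blue, 1 library each. Bars are 95% counting intervals, visible mainly for Nqo1, where 18 reads in MMP9_KO and 3 in Control carry the values. The other 9 genes lie between 27.4 and 477 in MMP9_KO and between 30.4 and 415 in Control.

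Both regulators differed by less than 1.2-fold as deposited. Nfe2l2 had 71.5 in MMP9_KO and 69.9 in Control, a fold of 1.02 (0.970 to 1.08) whose counting interval holds 1. For the values as deposited, no difference in its message was detectable at this depth. Its log2 ratio of 0.03 as deposited was 0.21 with the median ratio of all genes set to 0, 0.22 with a trimmed mean of log ratios and 0.31 with equal sums. NRF2 activity is set mainly by the stability of the protein, which was not measured. Keap1, the adaptor that directs this degradation, had 27.4 in MMP9_KO and 30.4 in Control, 1.11-fold lower (1.02 to 1.2), a direction that turned under 3 other scalings. An antisense gene, Gm16754, shares 510 exon bases with Keap1 in GENCODE M21, and no source used here states whether counting used strand, so reads of both could be mixed.

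Nqo1, the quinone reductase often taken as the readout of NRF2, was barely present. It had 0.428 in MMP9_KO and 0.0745 in Control, from 18 and 3 reads. The ratio was 5.74 with a wide interval (1.67 to 30.4), the only one of the set past 2-fold. Nqo1 lay below the level for comparison, and its log2 ratio of 0.41 on the pseudocount scale is shrunk by its low level. With a pseudocount of 0.1 and no filter, an alternative chosen after the data were seen, it was the 1 member past 2-fold, where 3.52% of 26037 genes were higher and 7.72% lower. A level set by so few reads can be read as low in both libraries and no further.

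The enzymes of glutathione synthesis did not move in step. Gclc, the catalytic subunit of glutamate-cysteine ligase that makes the first bond of glutathione, had 65.8 in MMP9_KO and 92.5 in Control, 1.41-fold lower (1.34 to 1.48). As deposited, this was the largest difference among the 9 compared members, at a log2 ratio of -0.49. A ratio as low or lower was found in 28.6% of all compared genes. After centring by GC content, Txnrd1 at 0.37 differed more than Gclc at -0.31. With the median ratio of all genes set to 0, Prdx1 (0.42) and Txnrd1 (0.38) differed more than Gclc (-0.31). The same held with a trimmed mean of log ratios (0.43, 0.39 and -0.30) and with equal sums (0.53, 0.49 and -0.20). Gclm, the modifier subunit that raises the activity of the ligase, had 359 in MMP9_KO and 379 in Control, 1.06-fold lower (1.03 to 1.08), a direction that also turned under these scalings.

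Set against each other within a library, the level of Gclc per length was 0.299 of that of Gclm in MMP9_KO and 0.398 in Control, on the lengths of the principal transcripts. That quotient was 1.33 times smaller in the knockout library (1.26 to 1.41), and scaling by 1 factor per library does not change it. Centring by GC content did. The log2 ratios, -0.49 for Gclc and -0.08 for Gclm as deposited, became -0.31 and -0.11, which are closer together. The pairs compared in this way were chosen with the values known. Gclm carries a limit of its own: Gm17494, an antisense transcript at 984 in MMP9_KO and 1255 in Control, shares 296 exon bases with it. Gm6061, a transcribed processed pseudogene on the strand of Gclm and without a row, shares 244. No source used here states how reads over these overlaps were assigned, so the Gclm level is uncertain.

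The thioredoxin cycle held the 2 highest ratios among the compared members. Txnrd1, the cytosolic thioredoxin reductase, had 477 in MMP9_KO and 415 in Control, 1.15-fold higher (1.13 to 1.17). Prdx1, a peroxiredoxin that removes hydrogen peroxide with electrons from thioredoxin, had 193 in MMP9_KO and 163 in Control, 1.18-fold higher (1.15 to 1.22). These were the 2 members above the middle quartiles of all genes, at 76.4% and 78.8% of the ranking from the lowest ratio. Their counting intervals lie above 1, yet both differences are far under 2-fold and no spread between cultures is known.

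Srxn1, sulfiredoxin, which repairs overoxidised peroxiredoxins, had 34.5 in MMP9_KO and 34.2 in Control, a fold of 1.01 (0.938 to 1.09). Srxn1 relative to Prdx1 was 1.17 times smaller in MMP9_KO (1.08 to 1.27), while Txnrd1 relative to Prdx1 was 0.971 times its Control value (0.934 to 1.01). Neither direction held once ratios were centred by GC content. There the log2 ratios of Srxn1, at 0.33, and Txnrd1, at 0.37, lay above that of Prdx1, at 0.22. Prdx1 has similar copies, of which only Gm7204 had a row. The transcript of Gm7204 matched Prdx1 at 97.5% over 597 bases and had 143 in MMP9_KO and 129 in Control. Summed, the 2 genes had 336 in MMP9_KO and 292 in Control, 1.15-fold higher (1.12 to 1.18), so the direction did not rest on how reads were split between these 2. Reads shared with the copies without a row, Gm21399 (98.3% over 597 bases) and Gm15974 (90.9% over 538 bases), could not be followed.

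Both superoxide dismutases, which turn superoxide into hydrogen peroxide, were lower as deposited, Sod1 under each scaling tried and Sod2 under none of the 3 other scalings. Sod1, the copper-zinc enzyme of the cytosol, had 78.0 in MMP9_KO and 101 in Control, 1.30-fold lower (1.24 to 1.36). Sod2, the manganese enzyme of mitochondria, had 42.8 in MMP9_KO and 48.3 in Control, 1.13-fold lower (1.06 to 1.21). Per length of the principal transcripts, Sod1 was 16.7 times Sod2 in MMP9_KO and 19.2 times in Control. Per length of all annotated exons it was 4.601 times in MMP9_KO and 5.28 times in Control. On either length, Sod1 relative to Sod2 was 1.15 times smaller in the knockout library (1.06 to 1.24). Transcripts of Gm8566 and Gm8238 resemble Sod1 over 298 and 235 bases, and stretches of at most 210 bases of the Sod2 transcript recur in 11 other genes, so some reads of both could have been shared.

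Scaling decided the sign of the smallest differences. With the median ratio of all genes set to 0, with a trimmed mean of log ratios or with equal sums, the knockout values moved up by 0.18, 0.19 or 0.29 on the log2 scale. Gclm, Keap1 and Sod2, lower in MMP9_KO as deposited, were higher under each of the 3, while Gclc and Sod1 stayed lower and Nfe2l2, Txnrd1, Srxn1 and Prdx1 stayed higher. Centring the ratios in bins of transcript GC content turned Keap1 alone, to 0.30, and the transcript of Keap1 has the highest GC content of the set at 58.0%. No compared member reached 2-fold under any of these. Of all compared genes 5.09% were higher and 7.17% lower with the median set to 0, 5.14% and 7.11% with a trimmed mean, 6.06% and 6.15% with equal sums, and 5.11% and 6.37% after centring by GC content.

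**Figure D3:**
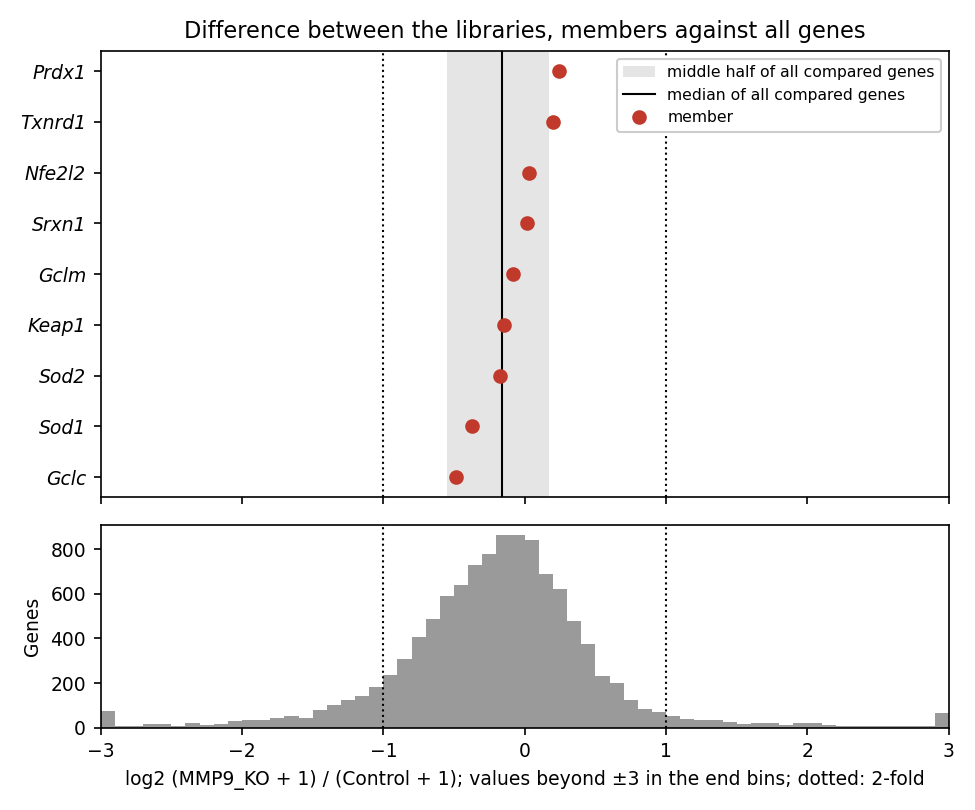
Upper panel: log2 ratio of MMP9_KO over Control, with a pseudocount of 1, for the 9 compared members, above a grey band for the middle quartiles of all compared genes and a black line at their median of -0.16. Lower panel: number of the 11126 compared genes per ratio bin, with dotted lines at 2-fold. Prdx1 at 0.24 and Txnrd1 at 0.20 lie right of the band and the other 7 lie inside it.

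Levels within a library spanned a wide range once divided by length. On the lengths of the principal transcripts in GENCODE M21, Txnrd1 led in MMP9_KO at 135 normalised reads per kilobase, before Sod1 at 122, Prdx1 at 84.2 and Gclm at 64.2. Nfe2l2 followed at 28.9, Gclc at 19.2, Srxn1 at 12.3, Keap1 at 7.57, Sod2 at 7.30 and Nqo1 at 0.275. Of these neighbours only Keap1 and Sod2 had overlapping counting intervals. In Control the order was the same except that Sod1, at 158, stood before Txnrd1, at 118. There Nfe2l2 at 28.3 and Gclc at 27.0 overlapped, as did Keap1 at 8.41 and Sod2 at 8.25.

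The place of Sod1 depends on the length used, since its principal transcript has 641 bases and all its annotated exons together 3970. With all exons it came at rank 4 in both libraries, at 19.7 per kilobase in MMP9_KO and 25.5 in Control. With all exons in Control, Gclm at 60.3 also stood before Txnrd1 at 58.6, with overlapping intervals, and Gclc at 24.6 before Nfe2l2 at 18.4. Per length of the principal transcripts, Txnrd1 ranked higher than 98.8% of compared genes in MMP9_KO and 97.8% in Control, and Sod2 higher than 58.3% and 57.8%.

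The counts for the related genes that follow stand against the 4.00% higher and 9.58% lower of all compared genes. Of 12 partners of NRF2 and KEAP1, 10 were compared, with 0 higher and 0 lower by 2-fold, too few to set apart from those shares. With a pseudocount of 0.1 and no filter 1 was lower, against 7.72% of all genes. The 10 had a median log2 ratio of -0.11, which turned positive under each of the 3 scalings. Cul3, the scaffold of the ligase that KEAP1 serves, had 61.3 in MMP9_KO and 65.4 in Control. Rbx1, the RING subunit of that ligase, had 12.8 in MMP9_KO and 18.7 in Control. Maff, a small MAF protein, had 2.80 in MMP9_KO and 5.67 in Control, a ratio of 2.02-fold lower (1.61 to 2.55) that fell short of 2-fold with the pseudocount.

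Genes for the supply and use of glutathione held larger differences than Gclc and Gclm. Of 23 genes listed for glutathione 18 were compared, and 4 were higher, 2 lower and 12 within 2-fold, with a median log2 ratio of -0.04. Slc7a11, the transporter subunit that imports cystine for glutathione, had 75.7 in MMP9_KO and 7.08 in Control, 10.7-fold higher (9.46 to 12.1). Its partner chain Slc3a2, named after its values were seen, had 125 in MMP9_KO and 60.2 in Control, 2.07-fold higher (1.97 to 2.17). Relative to Gclc, the reads of Slc7a11 were 15.03 times as many in MMP9_KO as in Control (13.2 to 17.2), and relative to Gclm 11.3 times (9.98 to 12.8).

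The other 2 higher genes, named after their values were seen, were the glutaredoxin gene Glrx (14.7 in MMP9_KO and 5.09 in Control) and Chac1, which degrades glutathione (12.8 in MMP9_KO and 3.35 in Control). Mgst3, a microsomal glutathione transferase, had 1.28 in MMP9_KO and 12 in Control, 9.36-fold lower (7.05 to 12.6). Gstp1, the other lower gene and likewise named after its values were seen, had 1.28 in MMP9_KO and 4.42 in Control. Gss, which completes glutathione, had 17.1 in MMP9_KO and 25.8 in Control, and Gsr, which returns it to the reduced form, had 106 in MMP9_KO and 74.3 in Control. These 2 enzymes stayed within 2-fold and lay on opposite sides of 1.

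Among 14 thioredoxin and peroxiredoxin genes outside the set, 0 were higher, 1 was lower and 13 were within 2-fold, with a median log2 ratio of -0.41. The lower one was Prdx2, a cytosolic peroxiredoxin, at 53.3 in MMP9_KO and 110 in Control, 2.06-fold lower (1.95 to 2.16). It came within 2-fold under each of the 3 scalings. Txn1, the substrate of thioredoxin reductase, had 52.4 in MMP9_KO and 72.7 in Control, and mitochondrial Txn2 had 61.7 in MMP9_KO and 107 in Control. Sesn1, a sestrin, had 30.6 in MMP9_KO and 54.6 in Control. Relatives of Txnrd1 and Prdx1 lay on both sides of 1. Txnrd2 had 8.43 in MMP9_KO and 14.6 in Control, and Txnrd3 had 5.53 in MMP9_KO and 4.45 in Control. Both were named after their values were seen. Prdx6, a peroxiredoxin likewise named after its values were seen, had the highest ratio of the 14. It stood at 103 in MMP9_KO and 71.3 in Control, 1.45-fold higher (1.38 to 1.52).

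Of 5 genes listed for superoxide and peroxide 4 were compared, with 0 higher and 1 lower and a median log2 ratio of -0.58. Ucp2, a mitochondrial carrier, was that one at 322 in MMP9_KO and 727 in Control, 2.26-fold lower (2.21 to 2.30), and it too came within 2-fold under each scaling. Cat, catalase, had 100 in MMP9_KO and 58.8 in Control, 1.70-fold higher (1.62 to 1.79), and with equal sums it was past 2-fold at a log2 ratio of 1.04. Sod3, the extracellular dismutase, had 0 reads in both libraries, which allows up to 0.0713 in MMP9_KO and 0.0745 in Control if 3 reads are taken as the limit.

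Further NRF2 targets, for NADPH supply, heme breakdown and detoxification, went both ways. Of 21 listed 18 were compared, with 2 higher, 4 lower and 12 within 2-fold as deposited, and with 4 higher and 1 lower when the median ratio was set to 0. The median log2 ratio of the 18 was -0.42 as deposited, below the -0.16 of all compared genes. Hmox1, heme oxygenase 1, had 64.8 in MMP9_KO and 37.5 in Control, 1.73-fold higher (1.62 to 1.84). G6pdx, the enzyme that starts the pentose phosphate pathway and yields NADPH, had 153 in MMP9_KO and 72.9 in Control, 2.09-fold higher (2.004 to 2.19). Cbr3, a carbonyl reductase, had 0.523 in MMP9_KO and 3.35 in Control, 6.42-fold lower (4.07 to 10.6).

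The NADPH oxidase, which makes superoxide in phagocytes, held the highest ratio of all these lists. Of 10 genes 8 were compared, with 2 higher, 0 lower and 6 within 2-fold, and a median log2 ratio of -0.30. Cybb, its catalytic chain, had 53.9 in MMP9_KO and 2.01 in Control, 26.8-fold higher (21.5 to 33.9). Ncf1, a cytosolic subunit, had 72.3 in MMP9_KO and 28.7 in Control, 2.51-fold higher (2.35 to 2.69). Cyba, the membrane partner of the catalytic chain, had 17.9 in MMP9_KO and 35.0 in Control, 1.96-fold lower (1.79 to 2.14), so the subunits of the oxidase differed in direction.

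Over the 6 lists together, 72 of 85 genes were compared, and 8 were higher, 8 lower and 56 within 2-fold, with a median log2 ratio of -0.33, against 4.00% higher and 9.58% lower of all compared genes. With the median set to 0 or a trimmed mean 10 were higher and 3 lower, with equal sums 12 and 3, and after centring by GC content 11 and 2. The lists were chosen with earlier results of these data known, so these counts only describe the surroundings of the set. The shift in macrophage and osteoclast markers ran alongside all of them.

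**Figure D4:**
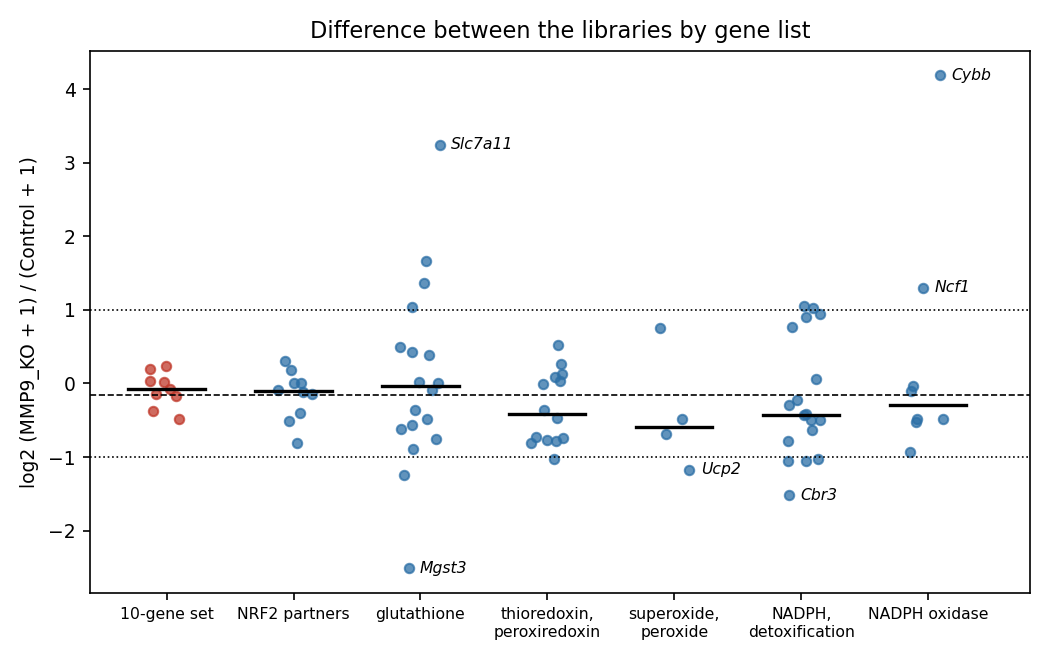
Log2 ratio of MMP9_KO over Control, with a pseudocount of 1, for each compared gene of the 10-gene set in red and of the 6 related lists in blue. Horizontal bars are list medians, the dashed line is the median of all genes at -0.16 and dotted lines mark 2-fold. The set and the NRF2 partners lie within 2-fold, while Slc7a11 at 3.25 and Cybb at 4.19 stand above and Mgst3 at -2.51 below.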

How the data were processed

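RNA of 1 MMP9_KO and 1 Control library was sequenced from polyadenylated RNA on an Illumina instrument, per the labels' protocols. Reads were aligned with TopHat to mouse build mm9, per the submitters' processing notes. No source used here states the counting program, annotation, use of strand or scaling total. Log2 values were deposited by the authors in 1 table titled normalised RPKM. Converted from log2, each value was a whole number of steps of 1 size per library (0.0238 in MMP9_KO, 0.0248 in Control; 99.99% of values above 0 within 0.05 of a whole read), with the lowest value at 0.9 of the step, set to 0 here. They were read as scaled reads without length division.

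Folds use values without pseudocount, with exact 95% intervals from read numbers; since reads carry no molecular identifier and need not be independent molecules, the intervals cover counting error only. Genes with a mean of at least 1 were compared with a pseudocount of 1, and 2-fold was the size called; this scale understates differences of low genes. GENCODE M21 (GRCm38) gave lengths, GC content (96.2% of compared genes) and overlaps by Ensembl identifier. Copies were sought among its transcripts by alignment (at least 90% identity over 200 bases). The named genes are the 10 members, Mmp9, and in each of 6 lists the first 2 genes and the 2 compared genes that differed most; others are said to be named after their values were seen. Members and lists were chosen with earlier results of these data known. The counting intervals, the 2-fold calls and the trimmed mean were tested on simulated reads. Those reads carry counting error alone, the error the intervals assume, so the test does not bear on spread between cultures. The other scalings and GC centring were not tested in this way. Python 3.11.15, numpy 2.4.6, pandas 2.3.3 and scipy 1.17.1 were used.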

Additional observations from a re-analysis of the deposited data

How the results depend on the processing

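No paired analysis was possible because each group had 1 library, which also meant that none could be omitted. The count of members past 2-fold stayed at 0 in both directions under 8 other settings of pseudocount, filter, scaling and GC centring and was 1 higher with a pseudocount of 0.1 and no filter, added later, through Nqo1. The median log2 ratio of the members, -0.08 as deposited, was 0.10 with the median of all genes set to 0, 0.11 with a trimmed mean, 0.21 with equal sums, 0.078 once ratios were centred by GC content and -0.032 without a filter, where Nqo1 enters. Without Gclm, also added later, it was -0.07. Each of the 3 scalings adds nearly the same amount to every gene, so the changes of sign under them follow from their construction. After GC centring the median is the value of Nfe2l2 in place of Gclm, with Keap1 moved from below 0 to 0.30. Why the ratios moved was not tested. Of 59 alternative values of single members, 28 lay within the counting interval, 31 outside it, and 10 changed sign, in 3 genes.

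Over all genes 255 were higher and 603 lower with a pseudocount of 5, 674 and 684 with equal sums, and 916 and 2011 with a pseudocount of 0.1 and no filter; 682 were lower once centred by GC content. Over the related lists 3 were lower with the median set to 0, a trimmed mean, equal sums or a pseudocount of 5, 2 once centred by GC content, and 5 at a mean of at least 5. The glutathione list median of -0.04 was 0.13 with the median set to 0, 0.13 with a trimmed mean, 0.23 with equal sums and 0.0083 at a mean of at least 5. That of the NRF2 partners, -0.11, was 0.068, 0.077 and 0.17 under the 3 scalings. The cause of the other moves was not tested. Among the members depth limits Nqo1 most. It also leaves the direction of Nfe2l2 and Srxn1 as deposited undecided, since their counting intervals hold 1. No depth stands in for replicate cultures.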
